A study of Mus musculus with 4 samples.

Results

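Developing retinal cells that carry an active Hes1 promoter were compared with the remaining retinal cells for 41 genes of redox defence: metallothioneins, the enzymes that make and use glutathione, peroxiredoxins, the thioredoxin system, superoxide dismutases, catalase and the Nrf2 axis. The 41 genes are a list of names, redox defence genes that glia are known to supply, and no threshold on their values entered the rule, although earlier results of these data were known when it was drawn up. All 41 were found among the 21828 genes analysed, each with an expression level in all 4 libraries. In 40 of them the level reached an FPKM (fragments scaled to transcript length and to the mapped fragments of the library) of 1 in at least 1 library, as it did in 12941 genes in all. These 12941 are called the tested genes here, and the extracellular superoxide dismutase Sod3 was the 1 member outside them.

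The mice were FVB/N and carried a 2.5-kb Hes1 promoter driving a destabilized enhanced green fluorescent protein (EGFP). Retinas were taken at postnatal day 1 (P1) and postnatal day 4 (P4), dissociated with trypsin and sorted into EGFP-positive cells (pHes1_EPC) and EGFP-negative cells (pHes1_ENC). Each fraction at each age gave 1 RNA-seq library, so all 4 libraries carried the transgene and no group had a replicate. No test between groups was possible, and the ranges given with ratios come from the 95% intervals of Cufflinks, which cover counting error only. For many members the printed FPKM lay above its own interval, so the ranges describe the intervals and not the printed levels. A gene was counted as higher or lower when log2(FPKM + 1) differed by more than 1 between a pair of libraries, which is a 2-fold rule. This scale understates the differences of genes with a low FPKM.

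Hes1 is active in retinal progenitors as well as in Müller glia, and the sort separates cells by promoter activity, not by cell type. Summed FPKM over 15 Müller glia markers were 609.8 in pHes1_ENC and 2057 in pHes1_EPC of P1, and 416.7 and 4406 in those of P4. Over 11 progenitor markers the sums were 803.5, 3079, 430.1 and 1942 in the same order, so the EGFP-positive fractions had the larger sums of both lists. Over 10 rod markers they were 725.5, 44.8, 4305 and 801.6. Erythroid markers were concentrated in the EGFP-negative fractions, with sums of 214.2 and 514.5 against 0.921 and 8.89 over the 10 markers found. In such mixtures a lower share of cells of a type and less RNA per cell cannot be told apart. FPKM summed over all genes was also uneven, from 342618 in P1 pHes1_ENC to 450080 in P4 pHes1_EPC.

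Cells dispose of reactive oxygen by several linked routes. Superoxide dismutases turn superoxide into hydrogen peroxide, which catalase, glutathione peroxidases and peroxiredoxins then reduce, with glutathione and thioredoxin as the electron donors that NADPH regenerates. Glutathione transferases join glutathione to reactive lipids and foreign compounds, metallothioneins bind zinc and copper through their many cysteines, and the transcription factor Nrf2, held in check by Keap1, switches on many of these genes. Müller glia span the retina, hold much of its glutathione and pass protective molecules to neurons.

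Metallothioneins and several detoxification enzymes are regulated through short DNA elements, so the promoters of the 3 metallothionein genes are shown before the values. Mt3, Mt2 and Mt1 lie in this order within 27.7 kb of chromosome 8, at 96676507-96678048, 96696518-96697467 and 96702989-96704227 on the plus strand of NCBI37/mm9, the build of the expression tables. The 250 bases before the RefSeq start of each gene are printed 5′ to 3′ on the plus strand from GRCm38.p6, with the core letters of the metal response element, TGCACNC or TGCGCNC on either strand, in capitals. The windows are chr8:94178839-94179088 for Mt1, chr8:94172368-94172617 for Mt2 and chr8:94152357-94152606 for Mt3.
Mt1: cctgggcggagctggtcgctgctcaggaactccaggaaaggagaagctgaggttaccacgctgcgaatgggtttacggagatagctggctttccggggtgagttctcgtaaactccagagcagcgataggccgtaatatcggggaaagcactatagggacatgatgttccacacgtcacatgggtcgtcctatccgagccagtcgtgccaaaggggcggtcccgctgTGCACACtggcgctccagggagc
Mt2: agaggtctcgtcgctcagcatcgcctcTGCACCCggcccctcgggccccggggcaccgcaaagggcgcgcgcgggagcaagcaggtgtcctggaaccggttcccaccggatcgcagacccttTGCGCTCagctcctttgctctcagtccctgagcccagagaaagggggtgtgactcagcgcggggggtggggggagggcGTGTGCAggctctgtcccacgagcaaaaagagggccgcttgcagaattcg
Mt3: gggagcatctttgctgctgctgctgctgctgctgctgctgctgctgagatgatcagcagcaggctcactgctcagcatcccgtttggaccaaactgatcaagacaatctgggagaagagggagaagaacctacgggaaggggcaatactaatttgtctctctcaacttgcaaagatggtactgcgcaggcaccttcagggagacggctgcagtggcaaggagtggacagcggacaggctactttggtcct
Before the RefSeq start used here, Mt2 held 3 such cores and Mt1 held 1, while none was found in these letters of Mt3. With the 50 bases after the start added, the counts were 4 in Mt2, 3 in Mt1 and 1 in Mt3. Letters outside these windows were not searched, so the counts depend on the listed start and do not cover whole promoters. At least 1 core was present in 25.7% of the 32851 mouse promoters of this length, at least 3 in 1.97% and at least 4 in 0.517%.

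Within pHes1_EPC, Mt2 and Mt1 had the largest changes with age of the 41 members on the log2(FPKM + 1) scale. Mt1, a ubiquitous zinc-binding form, measured an FPKM of 7.93 in the EGFP-negative and 32.7 in the EGFP-positive cells of P1, and of 11.0 and 197.8 in those of P4. Mt2, its close partner, measured 1.23, 4.85, 7.89 and 124.1 in the same order, which is that of every set of 4 values given for a gene. Mt3, the form known from the central nervous system, measured 0.108, 0.454, 0.117 and 3.79. Each of the 3 genes had its highest level in P4 pHes1_EPC. The ratio of pHes1_EPC to pHes1_ENC for Mt1 was 4.12 at P1 (range 2.62 to 6.22) and 18.0 at P4 (range 12.5 to 23.2). For Mt2 it was 3.93 at P1 (range 1.32 to 12.2) and 15.7 at P4 (range 9.86 to 21.5). Mt3 in both pHes1_ENC libraries had an interval that reached 0, and its P4 ratio had a lower bound of 7.84. On the log2(FPKM + 1) scale the P4 differences were 4.05 for Mt1, 3.82 for Mt2 and 2.10 for Mt3, and the P1 difference of Mt3, 0.39, did not pass the rule. Within pHes1_EPC, Mt2 rose from P1 to P4 by 4.42 on this scale, Mt1 by 2.56 and Mt3 by 1.72. Mt2 also rose within pHes1_ENC, by 1.99, while the change of Mt1 there was 0.43 and that of Mt3 was 0.01.

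Markers of other cells and of handling were read beside the metallothioneins. Of 10 pigment epithelium markers, 7 reached an FPKM of 1 in P4 pHes1_EPC, where their sum was 92.2 against at most 10.1 in the other libraries. Pmel at 36.5, Ttr at 23.1 and Dct at 15.0 made up most of it. Rpe65, the retinoid isomerase that defines mature pigment epithelium, was at 0.422 there and at or under 0.0239 in the other libraries. At P4 all 10 had larger values in pHes1_EPC with intervals that did not overlap, as had 5727 of the 12941 tested genes. The 11 dissociation response genes summed to 105.0, 151.7, 177.8 and 213.6, and Jun made up much of the P4 sums, at 86.5 and 89.7. Their median P4 difference was 0.05, with Fos and Egr1 higher and Junb and Nr4a1 lower in pHes1_EPC. From P1 to P4 within pHes1_EPC, 3 of the 11 passed the 2-fold rule upwards, beside 7.04% of tested genes. These were Egr1 by 1.94, Fos by 1.73 and Junb by 1.14. The median change of the 11 there was 0.20, and Nr4a1 changed by -0.48. Endothelial markers summed to 63.8, 213.4, 15.5 and 195.1. Most of it came from Kdr, at 208.8 and 188.9 in pHes1_EPC of P1 and P4, so the sums mainly follow this gene. Between these ages in pHes1_EPC, Flt1 went from 0.715 to 1.41 and Esam from 0.162 to 0.466. Kdr and Cdh5 went down there, all 4 with intervals that did not overlap. None of the 10 endothelial markers passed the 2-fold rule with age in pHes1_EPC. Pecam1 and Cdh5 were at or under 0.142 in all libraries. The 7 astrocyte markers summed to 4.52, 5.73, 9.10 and 16.1. The part of these cells and of handling in the levels of the metallothioneins and of the other members was not tested. Of the genes around the metallothioneins, Mtf1, the zinc sensor that binds metal response elements, measured 4.13, 3.67, 4.87 and 3.62. The zinc exporter Slc30a1, another of its targets, measured 7.18, 6.32, 14.9 and 8.93. Neither passed the 2-fold rule between the fractions, at P1 or at P4.

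**Figure D1:**
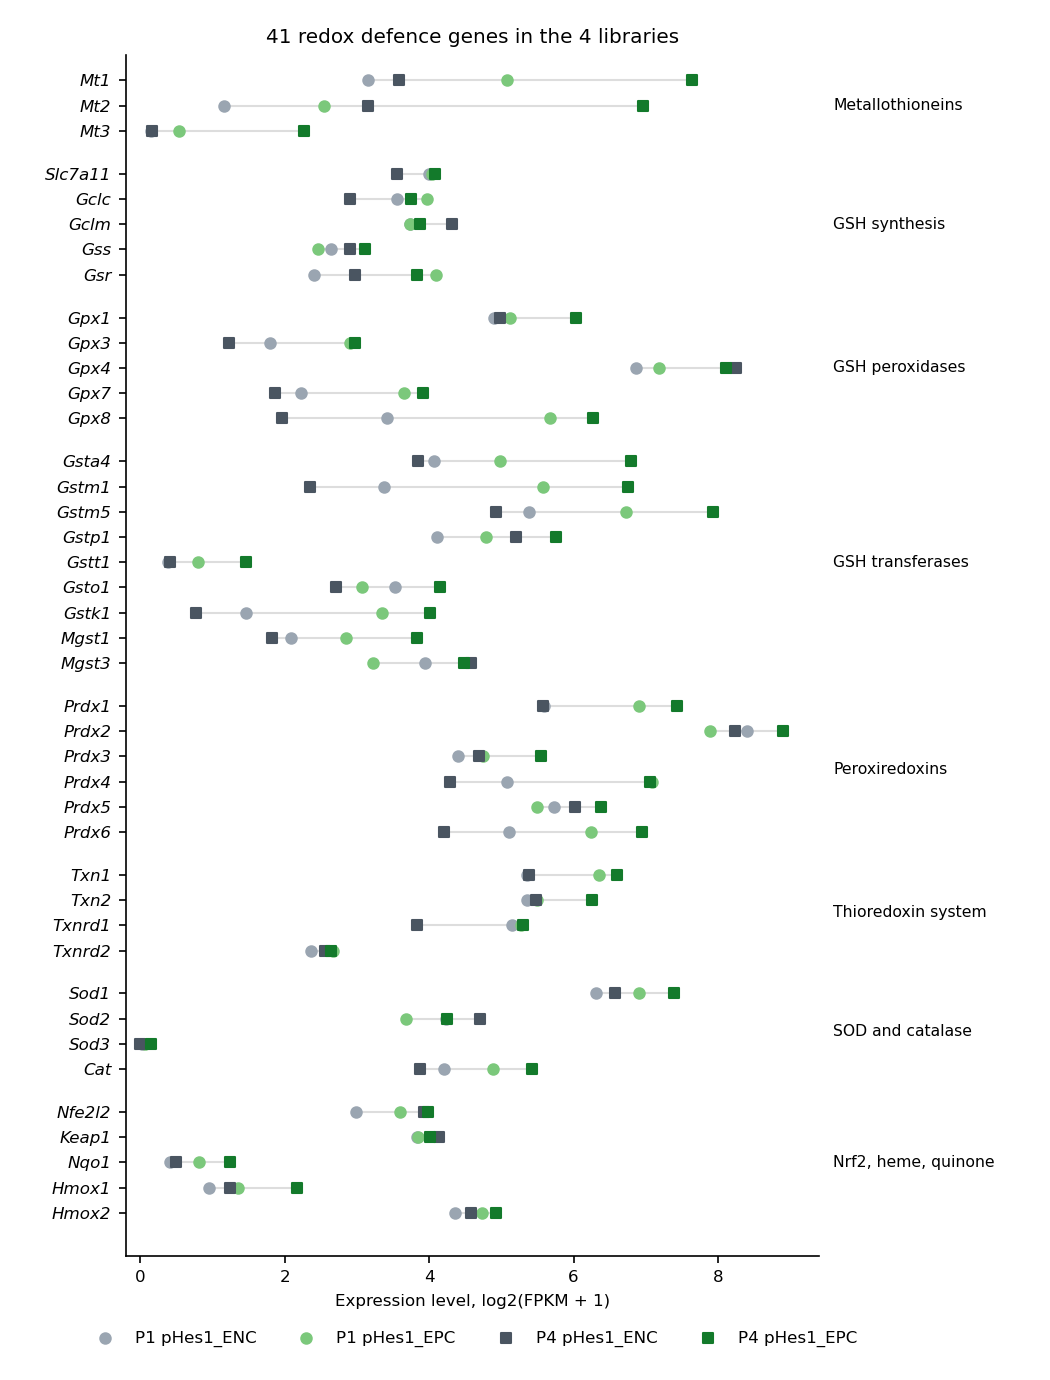
Level of each of the 41 genes in the 4 libraries, grouped by role, as log2(FPKM + 1) on the horizontal axis; grey symbols are pHes1_ENC and green symbols pHes1_EPC, circles P1 and squares P4, with 1 library per symbol. The dark green squares of Mt1, Mt2, Gpx8, Gsta4, Gstm1 and Gstm5 stand to the right of the other 3 symbols of their rows.

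Across the 41 genes, 12 were higher in pHes1_EPC than in pHes1_ENC at P1 and none was lower. Among the tested genes 10.3% were higher and 11.5% were lower at P1. At P4, 20 members were higher and none lower, against 16.6% higher and 9.15% lower among the tested genes. The members counted as higher were thus 29.3% of the 41 at P1 and 48.8% at P4. The median difference of the members was 0.41 at P1 and 0.92 at P4 on the log2(FPKM + 1) scale, where the medians of all tested genes were 0.02 and 0.15. Among the 33 members with an FPKM of at least 10 in some library, 11 and 17 were higher, against 10.9% and 17.4% of the 8403 genes at that level. The median of all genes moved with the scaling of the P4 libraries, from 0.15 to -0.11 when FPKM was brought to the same total. The share of tested genes counted as higher at P4 then became 11.6% and the share lower 13.5%.

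**Figure D2:**
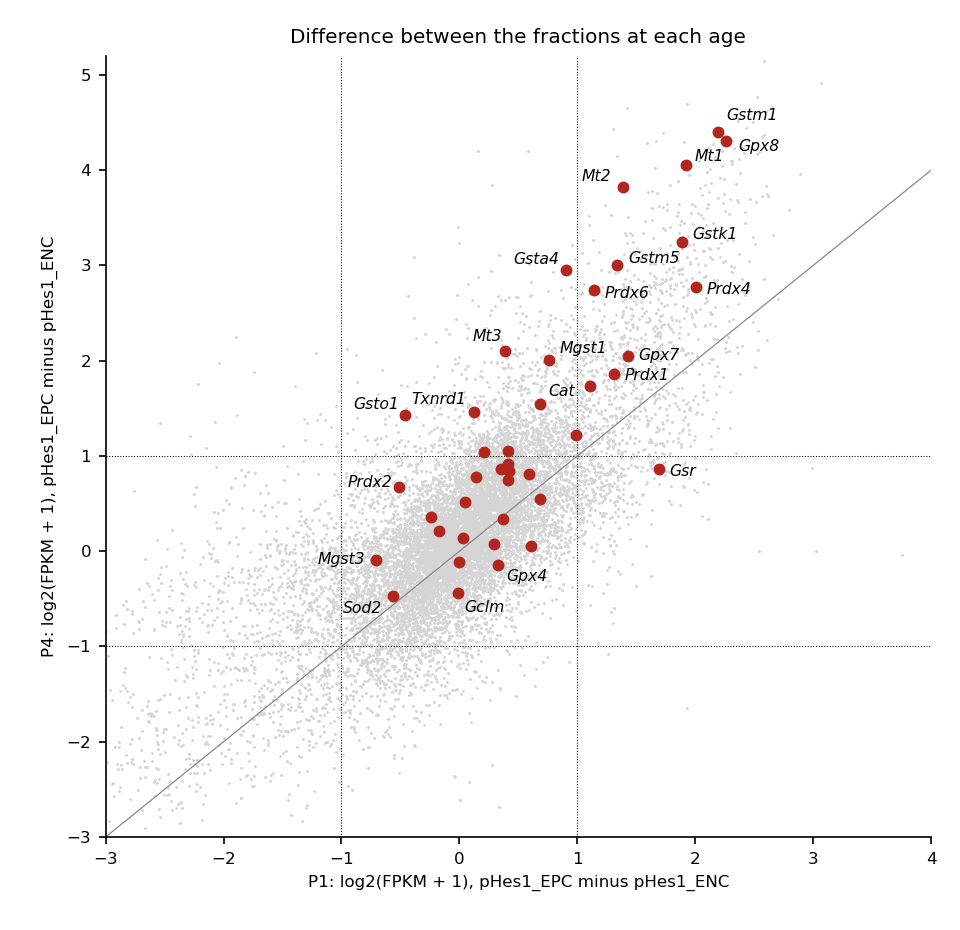
Difference between the fractions, pHes1_EPC minus pHes1_ENC on log2(FPKM + 1), at P1 (horizontal) and P4 (vertical), for the members (red, 1 point per gene) and all tested genes (grey; genes beyond the axis limits are not drawn). Dotted lines mark the 2-fold rule and the grey line equal differences. The 11 members past the rule at both ages lie at the upper right, and no member lies past the lower or left dotted line.

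The members divided by age into 4 classes. At both ages 11 were higher in pHes1_EPC: Mt1, Mt2, Gpx3, Gpx7, Gpx8, Gstm1, Gstm5, Gstk1, Prdx1, Prdx4 and Prdx6. Gsr alone was past the rule at P1 and not at P4. At P4 and not at P1 there were 9, Mt3, Gpx1, Gsta4, Gstt1, Gsto1, Mgst1, Txn1, Txnrd1 and Cat. The other 20 passed at neither age.

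Of the glutathione transferases, 3 of 9 were past the rule at P1 and 7 of 9 at P4. Gstm1, a cytosolic mu-class enzyme at 107815168-107820891 of chromosome 3 (NCBI37/mm9, minus strand), measured 9.37, 46.5, 4.11 and 106.9. It was 4.96 times as high in pHes1_EPC at P1 (range 3.89 to 6.11) and 26.0 times at P4 (range 19.0 to 32.9), and its P4 difference of 4.40 on the log2 scale was the largest of the 41 members. Gstm5, of the same class and within 122.1 kb of Gstm1, measured 40.9, 105.2, 29.5 and 242.6. Its ratio was 2.57 at P1 and 8.22 at P4 (range 7.24 to 9.49). From P1 to P4, Gstm1 fell in pHes1_ENC by 1.02 on the log2 scale and rose in pHes1_EPC by 1.18. Gstm5 rose in pHes1_EPC by 1.20, and its change in pHes1_ENC was -0.46.

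Reads of 36 bases do not always separate the mu-class genes. In Gstm1, 35.7% of the 36-base windows of the transcript occurred at more than 1 place of the mouse genome, so part of its FPKM rests on reads shared with copies. The mu-class genes that are not members were listed separately, but their shared windows were not counted, so their values may rest on the same reads. Gstm7 measured 23.6, 27.0, 7.62 and 31.1 and Gstm3 measured 0.685, 3.71, 0.393 and 9.39. Gstm2, Gstm4 and Gstm6 stayed at or under 5.13 in all libraries. At P4 all 5 of these neighbours passed the 2-fold rule towards pHes1_EPC, beside 16.6% of tested genes. At P1 Gstm2 and Gstm3 passed it, at 1.03 and 1.48, beside 10.3% of tested genes. Gstm4, Gstm6 and Gstm7 did not pass at P1, at 0.03, 0.34 and 0.19.

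Transferases of other classes were spread more widely. Gsta4, which conjugates the lipid peroxidation product 4-hydroxynonenal, measured 15.8, 30.5, 13.4 and 109.6, with ratios of 1.92 at P1 and 8.20 at P4 (range 6.38 to 9.82). Gstk1, the kappa-class enzyme of mitochondria and peroxisomes, measured 1.75, 9.17, 0.702 and 15.2, with ratios of 5.24 and 21.6. The membrane-bound Mgst1, which also reduces lipid peroxides, measured 3.24, 6.18, 2.55 and 13.3. Thus only Gstk1 of these 3 passed the rule at P1, where Gsta4 differed by 0.90 and Mgst1 by 0.76 on the log2 scale, and all 3 passed at P4. Gsto1, an omega-class enzyme with thioltransferase activity, measured 10.5, 7.36, 5.57 and 16.7, and pHes1_EPC minus pHes1_ENC gave -0.46 for P1 and 1.43 for P4 on the log2 scale. The P1 intervals of the fractions overlapped for Gsto1. Gstt1, a theta-class enzyme, stayed low at 0.305, 0.731, 0.329 and 1.75, and its P4 difference of 1.05 fell below 1 under each of the 3 rescalings and with the trend of the difference with transcript length removed. Gstp1, the pi-class enzyme, measured 16.3, 26.6, 35.9 and 52.9 and was within 2-fold at both ages, and 57.0% of its 36-base windows recur elsewhere in the genome. Mgst3 measured 14.3, 8.37, 22.9 and 21.4, and its P1 difference of -0.71 was the lowest of any member at that age.

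Glutathione peroxidases reduce hydrogen peroxide or lipid peroxides with glutathione, and 3 of 5 were higher in pHes1_EPC at P1 and 4 of 5 at P4. Gpx8, an enzyme of the endoplasmic reticulum membrane on chromosome 13 at 113832971-113836596 (NCBI37/mm9, minus strand), measured 9.70, 50.1, 2.90 and 76.2. Its ratio was 5.17 at P1 (range 3.87 to 6.54) and 26.3 at P4 (range 16.3 to 35.8). Gpx7, its paralog in the lumen of the endoplasmic reticulum, measured 3.67, 11.6, 2.64 and 14.1, with ratios of 3.16 and 5.35. Both were thus past the rule at each age, and Gpx8 fell in pHes1_ENC between P1 and P4 by 1.46 on the log2 scale. Gpx3, the secreted form, measured 2.46, 6.46, 1.35 and 6.82, with ratios of 2.62 and 5.04. Gpx1, the abundant cytosolic form, measured 28.9, 33.7, 30.7 and 64.3, and its P4 difference of 1.04 was just past the rule, while it was 0.73 with FPKM at the same total. Gpx4, the enzyme that reduces lipid peroxides within membranes, was the most abundant of the 5 at 115.1, 144.5, 304.2 and 276.5. It rose with age in pHes1_ENC, by 1.39, and its pHes1_EPC minus pHes1_ENC value was 0.33 on the log2 scale in P1 cells and -0.14 in P4 cells. In Gpx4, 54.3% of the 36-base windows recur elsewhere in the genome.

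Peroxiredoxins, which reduce peroxides through a reactive cysteine, were higher in pHes1_EPC for 3 of 6 genes at each age, the same 3 genes. Prdx4, the form of the endoplasmic reticulum, measured 32.8, 135.0, 18.5 and 132.2, with ratios of 4.12 (range 3.46 to 4.72) and 7.16 (range 5.80 to 8.42). Prdx6, a cytosolic form that uses glutathione and repairs oxidized phospholipids, measured 33.4, 74.7, 17.5 and 122.7, with ratios of 2.24 and 7.02. Prdx1, a cytosolic form that draws on thioredoxin, measured 47.1, 118.4, 46.6 and 171.8, with ratios of 2.51 and 3.68. The level of Prdx4 in pHes1_EPC was about equal at both ages, and its wider P4 gap came with a lower level in pHes1_ENC. Prdx2, another cytosolic form that is also abundant in erythrocytes, measured 337.9, 237.3, 300.4 and 477.3, the highest FPKM of any member in each library except P4 pHes1_ENC, where that of Gpx4 was 304.2. Its log2 values for pHes1_EPC minus pHes1_ENC were -0.51 (P1) and 0.67 (P4), with intervals that did not overlap at either age. Shared 36-base windows made up 15.3% of Prdx1 and 13.8% of Prdx2. Erythroid markers had their larger sums in the EGFP-negative fractions at both ages, as given above, and their part in Prdx2 was not tested. The mitochondrial Prdx3 measured 20.1, 25.8, 24.8 and 45.8, and Prdx5, which is found in mitochondria, peroxisomes and cytosol, measured 52.1, 44.1, 64.1 and 82.5. Neither Prdx3 nor Prdx5 passed the rule between the fractions.

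The thioredoxin system hands electrons from NADPH to peroxiredoxins. Txn1, the cytosolic thioredoxin, measured 40.0, 80.5, 40.8 and 96.5, with log2 differences of 0.99 at P1 and 1.22 at P4. Txnrd1, the cytosolic reductase that recharges it, measured 34.6, 37.7, 13.3 and 38.5. Its fractions were nearly level at P1, with a ratio of 1.09 (range 0.997 to 1.20), and at P4 the ratio was 2.89 (range 2.58 to 3.27). Txnrd1 fell in pHes1_ENC between the ages by 1.31 on the log2 scale and changed by 0.03 in pHes1_EPC. The mitochondrial pair, Txn2 at 40.0, 44.1, 43.6 and 75.6 and Txnrd2 at 4.16, 5.33, 4.89 and 5.24, did not pass the rule.

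Of the 5 genes of glutathione synthesis and recycling, 1 was past the rule at P1 and none at P4. Slc7a11, the cystine importer, measured 14.9, 15.5, 10.8 and 15.9. Gclc, the catalytic subunit of the rate-limiting ligase, measured 10.7, 14.6, 6.48 and 12.4, with log2 differences of 0.42 at P1 and 0.84 at P4. Gclm, the modifier subunit of the same ligase, measured 12.3, 12.3, 18.9 and 13.7, with differences of -0.01 and -0.44. At P4 the catalytic and modifier subunits thus differed in opposite directions, both with intervals that did not overlap, though neither passed the 2-fold rule. Gss, which completes the synthesis, measured 5.21, 4.52, 6.48 and 7.66. Gsr, the reductase that recycles oxidized glutathione, measured 4.28, 16.0, 6.86 and 13.3 and was the only member higher at P1 alone, with ratios of 3.74 (range 2.92 to 4.65) and 1.93 (range 1.56 to 2.42). Its gap narrowed as pHes1_ENC changed by 0.57 and pHes1_EPC by -0.26 on the log2 scale.

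Superoxide dismutases did not pass the rule. The cytosolic Sod1 measured 78.5, 118.8, 94.6 and 166.6, with ratios of 1.51 and 1.76. The mitochondrial Sod2 measured 17.8, 11.8, 25.1 and 17.9, with ratios of 0.661 (range 0.579 to 0.767) and 0.711 (range 0.635 to 0.800), so its values were smaller in pHes1_EPC at both ages by less than 2-fold. Shared 36-base windows made up 25.5% of Sod1 and 27.5% of Sod2. Sod3 had FPKM of 0.0197 and 0.0414 at P1 and 0.104 in P4 pHes1_EPC, and it was listed at 0 in P4 pHes1_ENC. Cat, the peroxisomal catalase, measured 17.4, 28.5, 13.7 and 41.9, with ratios of 1.64 at P1 and 3.05 at P4 (range 2.57 to 3.48).

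The Nrf2 axis itself had no member past the rule between the fractions. Nfe2l2, which encodes Nrf2, measured 6.89, 11.1, 14.2 and 14.8, and Keap1, its inhibitor, measured 13.3, 13.4, 16.5 and 15.2. The P1 difference of Nfe2l2 was 0.61 and the P4 difference 0.05 on the log2 scale, and that of Keap1 was 0.00 and -0.11. Nqo1, a quinone reductase often used to read Nrf2 activity, was low at 0.323, 0.763, 0.407 and 1.37. Hmox1, the inducible heme oxygenase, measured 0.927, 1.55, 1.37 and 3.50. Both had larger values in pHes1_EPC, and with a pseudocount of 0.1 in place of 1 their P4 differences were 1.53 for Nqo1 and 1.29 for Hmox1, past the rule. Microglia express Hmox1, and 11 microglia markers summed to 3.37, 19.0, 10.4 and 18.6, with Csf1r at 0.238, 1.83, 0.620 and 1.14. Their part in Hmox1 was not tested. Hmox2, the constitutive heme oxygenase, measured 19.5, 25.5, 22.9 and 29.3.

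The core of the antioxidant response element that Nrf2 binds, TGACNNNGC on either strand, was searched in the RefSeq promoters of GRCm38.p6, from 250 bases before to 50 after each start. Gclc, Gsr, Gsta4, Hmox1, Prdx6 and Sod3 were not in the promoter table and were not searched, nor were letters outside this window. The other 35 of the 41 members were in it, and 8 held a core. These were 18.2% of the 44 promoters of members, against 12.4% of the 32851 promoters of all genes. The cores are shown with 10 bases on each side, core in capitals, read along the strand of the match, to show which members carry these letters. A match of letters is a description and does not show binding.
Gclm: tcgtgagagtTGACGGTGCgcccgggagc
Gstm5: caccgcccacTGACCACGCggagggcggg
Mgst1: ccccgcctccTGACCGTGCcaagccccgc
Mt2: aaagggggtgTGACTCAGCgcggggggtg
Nfe2l2: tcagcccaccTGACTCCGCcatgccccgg
Prdx1: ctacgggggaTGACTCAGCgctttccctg
Sod1: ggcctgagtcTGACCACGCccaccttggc
Txnrd1: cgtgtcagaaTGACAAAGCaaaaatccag
Mt2 and Prdx1 held the same 9 letters, at position -79 of Mt2 and, on the opposite strand, at -133 of Prdx1, counted from the start. Gstm5 and Sod1 shared another core, at -42 and, on the opposite strand, at -56. Of the 8 genes, Gstm5, Mgst1, Mt2, Prdx1 and Txnrd1 were higher in pHes1_EPC at P4, while Gclm, Nfe2l2 and Sod1 were not. Among all 41 members 48.8% were higher at P4, and a link between core and level was not tested. Mgst1 and Txnrd1 have several listed promoters, and the core was in only 1 of them for each gene. A metal response element core was present in 11 members and in 27.3% of their promoters, beside 25.7% of all promoters.

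The members can also be read by the compartment assigned to each. In the endoplasmic reticulum, Gpx7, Gpx8 and Prdx4, which reduce the peroxide formed during disulfide bonding of new proteins, were all past the rule at P1 and at P4, while the heme oxygenases Hmox1 and Hmox2 of the same compartment were past it at neither age. Of the 9 members assigned to mitochondria at least in part, Gstk1 was past it at both ages, Gsr at P1 and Gpx1 at P4. Gpx4, Prdx3, Prdx5, Txn2, Txnrd2 and Sod2 were past it at neither. Mgst1 and Mgst3 were assigned to membranes with no organelle named, and Sod1 to the cytosol, so they stand in neither set. Of these, Mgst1 was past the rule at P4 only, and Mgst3 and Sod1 at neither age.

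Changes of the members between P1 and P4 were counted within each fraction. In pHes1_EPC 9 members were higher at P4 than at P1, Mt1, Mt2, Mt3, Gsta4, Gstm1, Gstm5, Gsto1, Mgst3 and Prdx2, and none was lower, while 7.04% of tested genes were higher and 4.33% lower. When FPKM was brought to the same total, Mt1, Mt2, Mt3 and Gsta4 were the members still past the rule. In pHes1_ENC 3 members were higher at P4, Mt2, Gpx4 and Gstp1, and 3 were lower, Gpx8, Gstm1 and Txnrd1, beside 4.67% and 10.02% of tested genes. Which fraction had more members past the rule depended on the scaling: it was 9 in pHes1_EPC against 6 in pHes1_ENC as deposited, 4 against 6 at the same total and 5 against 6 with quantile normalization, and 3 against 5 with the length trend removed. The larger number stayed in pHes1_EPC with median-of-ratios scaling, where Gsto1 and Prdx2 lost the call in that fraction. It also stayed there with a pseudocount of 0.1, which added Gstt1, Mgst1 and Hmox1. In pHes1_ENC that pseudocount added Gstk1 and Nfe2l2. At the same total 3.84% of tested genes were higher and 7.12% lower in pHes1_EPC, and 4.28% and 11.2% in pHes1_ENC. The call of Gstm1 in pHes1_ENC was lost with quantile normalization, at -0.84, and that of Gstp1 with the length trend removed, at 0.94. The length trend also left Mt3 in pHes1_EPC at 0.98. The gap between the fractions was wider at P4 than at P1 in 33 of 41 members, or 80.5%, and in 63.0% of tested genes. Under the 3 rescalings it was wider in 29 to 32 members and in 48.8% to 50.8% of tested genes. It widened by more than 1 on the log2 scale in 13 members, or 31.7%, and in 12.1% of tested genes.

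**Figure D3:**
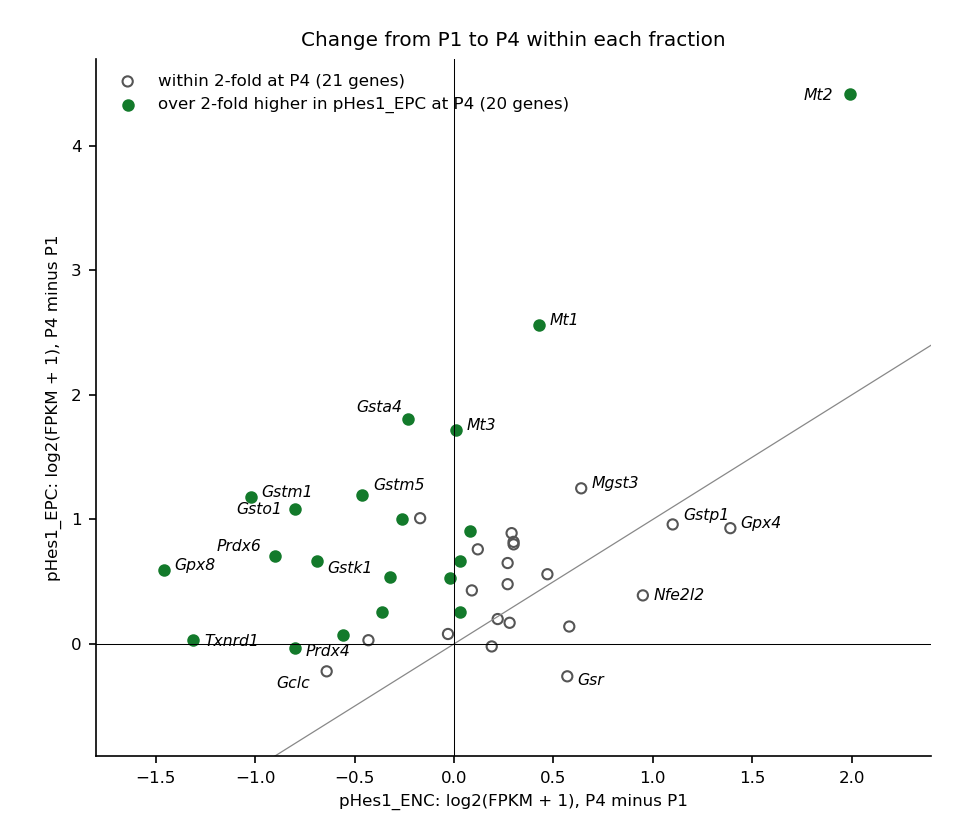
Change from P1 to P4 on log2(FPKM + 1) within pHes1_ENC (horizontal) and within pHes1_EPC (vertical), 1 point per member, filled for the 20 members higher in pHes1_EPC at P4. Points above the grey line are the 33 members whose gap between the fractions widened; Mt2 is at the top right, and Gpx8, Txnrd1 and Prdx4 lie left of 0 with changes in pHes1_EPC between -0.03 and 0.59.

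The widening took 2 forms. In 13 of the 20 members higher at P4 the larger part of the widening came from the pHes1_EPC side, and in 7 from a lower level in pHes1_ENC. Among all 2150 tested genes higher at P4, the pHes1_EPC side gave the larger part in 733. The split of the 20 depended on the scaling, with 9 from the pHes1_EPC side at the same total, 13 with median-of-ratios scaling and 11 with quantile normalization. Mt1, Mt2, Mt3 and Gsta4 were of the first form. Gpx8, Txnrd1, Prdx4 and Prdx6 were of the second, with changes in pHes1_ENC of -1.46, -1.31, -0.80 and -0.90. The 41 members together held 0.406% and 0.544% of the FPKM of the genes analysed in the EGFP-negative and EGFP-positive cells of P1, and 0.424% and 0.792% in those of P4.

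The counts were repeated with other scalings, pseudocounts and a length correction. Of the 12 members higher at P1, all 12 stayed past the rule under each alternative that gave them a difference, and of the 20 at P4, 16 did. The 4 that did not were Gpx1, Gstt1, Gsto1 and Txn1, and with the trend of the difference with transcript length removed they stood at 0.44, 0.47, 0.87 and 0.60.

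**Figure D4:**
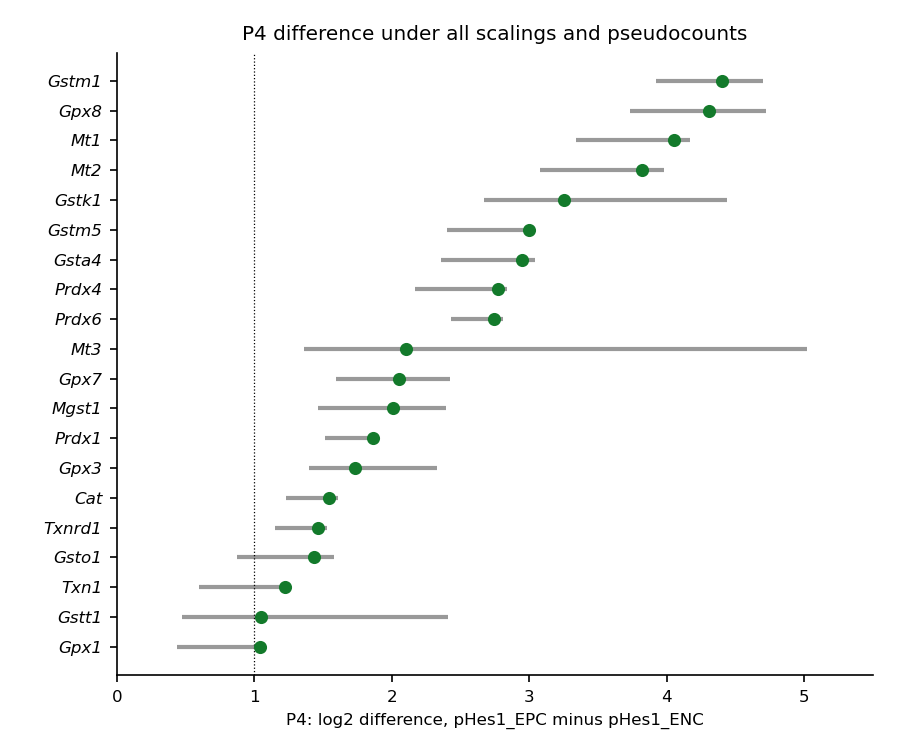
Log2 difference between the fractions at P4 for the 20 members higher in pHes1_EPC, as reported (green points) and its range over the alternative scalings, pseudocounts and length correction (grey lines); the dotted line marks the 2-fold rule. The grey lines of Gsto1, Txn1, Gstt1 and Gpx1 cross it, and that of Mt3, from 1.36 to 5.02, is the longest.

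Other genes of the same pathways were less one-sided. Of 98 further redox genes 85 were tested, and 8 were higher and 9 lower in pHes1_EPC at P1. These were 9.41% and 10.6% of the 85, near the 10.3% and 11.5% of all tested genes. At P4 19 were higher and 6 lower, or 22.4% and 7.06%, against 16.6% and 9.15% of all tested genes. The median difference was 0.00 at P1 and 0.48 at P4, where the medians of all tested genes were 0.02 and 0.15. Ceruloplasmin (Cp), a copper-carrying ferroxidase, measured 10.7, 60.8, 3.40 and 82.3, a ratio of 5.68 at P1. Slc1a3, the glial glutamate transporter and also one of the Müller glia markers, measured 34.0, 176.6, 15.1 and 231.4. The carbonyl reductase Cbr3 reached 12.5 in P4 pHes1_EPC from 1.06 in P4 pHes1_ENC. Lower in pHes1_EPC at both ages were Glo1, which clears methylglyoxal with glutathione, at 115.7, 50.7, 460.7 and 173.1, and the glutamate transporter Slc1a2 at 33.6, 1.66, 56.0 and 10.2. Slc1a1, which also carries cysteine, at 9.14, 0.479, 25.3 and 4.79, and Me1, a source of NADPH, at 3.82, 1.16, 13.9 and 4.25, were lower at both ages as well.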

How the data were processed

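RNA-seq was analysed in 4 libraries, 1 for each sorted fraction at each age. TopHat 2.0.8b placed the 36-base single-end reads on NCBI37/mm9, allowing up to 50 genome positions for a read. The authors deposited FPKM values per gene, estimated by Cufflinks 2.1.1, each with a 95% interval. Bcl2fastq 1.8.4 is named in the submitters' processing notes. Read counts were not used, so the depth is known only through those intervals. In P4 pHes1_EPC 21 of the 41 members had an FPKM above their own interval, fewer in the other libraries. Mt1 there had 197.8 with an interval of 119.1 to 134.8, and Mt2 had 124.1 with 75.2 to 88.2.

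Each table held 23021 lines and 22558 symbols. Small RNAs (730 symbols) were left out by name, and of several lines of a symbol the highest was kept. Differences are log2(FPKM + 1), pseudocount 1, computed in Python 3.11.15 with numpy 2.4.6 and pandas 2.3.3 and drawn with matplotlib 3.10.9, and the counting was tested on simulated data. The range of a ratio divides opposite interval bounds. Shared 36-base windows were counted over the NCBI37 genome, and promoters and motifs were read from RefSeq on GRCm38.p6.

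The members and gene lists were chosen with earlier results of these data known. All 41 members are named, and of the other redox genes those past the rule in the same direction at both ages whose higher library reached an FPKM of 10; Mtf1, Slc30a1 and the mu-class neighbours were named after their values were seen. The other settings tried were a plain ratio above 2, a pseudocount of 0.1, a filter at 10, 3 rescalings, summed lines, a length trend (running median over 501 genes) and intervals that do not overlap. The midpoint of the interval in place of FPKM and the rescaling of the widening were added after seeing the data.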

Additional observations from a re-analysis of the deposited data

Results flagged for a closer look

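In 2 members the fractions differed in opposite directions at P1 and P4, with Cufflinks intervals that did not overlap at either age. Gpx4, the membrane lipid peroxidase, gave 0.33 for P1 and -0.14 for P4 as pHes1_EPC minus pHes1_ENC on log2(FPKM + 1). Prdx2, a cytosolic peroxiredoxin, gave -0.51 and 0.67. None of these 4 values passed the 2-fold rule, and with 1 library per group the difference between the ages was not tested. Shared 36-base windows made up 54.3% of Gpx4 and 13.8% of Prdx2.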

How the results depend on the processing

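No paired analysis was possible because each comparison sets 1 library against 1, a single pair, and no result comes from a test. Intervals that do not overlap, used in place of the 2-fold rule, gave more members: 23 with larger and 3 with smaller values in pHes1_EPC at P1, 33 and 3 at P4, 12 and 12 between the ages in pHes1_ENC, and 27 with larger values at P4 in pHes1_EPC. Among the 12941 tested genes the same rule gave 4521 with larger and 4233 with smaller values in pHes1_EPC at P1, and 5727 and 3776 at P4. Between the ages it gave 3548 larger and 4072 smaller at P4 in pHes1_ENC, and 5609 and 2960 in pHes1_EPC. The filter at an FPKM of 10 in the higher library left 1 member lower at P4 in pHes1_ENC. The number higher at P4 in pHes1_EPC was 4 with FPKM at the same total, 5 with quantile normalization and 3 with the length trend removed, against 9. Median-of-ratios scaling took only Gsto1 and Prdx2 from the 9, and a pseudocount of 0.1 added Gstt1, Mgst1 and Hmox1. The median P4 difference was 1.24 with a pseudocount of 0.1 and 0.60 with the length trend removed, against 0.92. No difference of a member counted by the 2-fold rule changed direction under the alternatives. With a pseudocount of 0.1, Mt3, Gstt1, Txn1 and Nqo1 were also past the rule at P1, and Nqo1, Hmox1 and Sod3 at P4. The intervals cover counting error, and variation between animals or sorts was not measured.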
